A study of Mus musculus with 8 samples.

Results

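The 42 genes described here encode the nuclear subunits of respiratory complexes II, III, IV and V and somatic cytochrome c, measured by RNA sequencing in hearts of FASTKD1 transgenic and non-transgenic mice. They were chosen by name as subunits of these complexes, by a rule that uses no measured value, though with earlier results of these data known: 4 genes of complex II, 9 of complex III, cytochrome c, 13 of complex IV and 15 of complex V. All 42 were among the 13227 genes of the deposited count files, and all 42 were tested. The transgenic group held 4 hearts (titled A, B, C and E) and the non-transgenic group 4 hearts (A, B, D and E), all labelled as male FVB/N mice of 3 months. Where 4 values of a group follow each other, they stand in the order of these titles. The series title calls the FASTKD1 overexpression cardiac-specific; its promoter and founder line are not given in the sources used here.

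Complex II, succinate dehydrogenase, feeds electrons from the citric acid cycle into ubiquinone. Complex III passes them to cytochrome c, complex IV hands them to oxygen, and complex V, the ATP synthase, uses the proton gradient built by the chain to make ATP. Heart muscle is among the tissues richest in these complexes, and striated muscle replaces several ubiquitous subunits of complex IV by muscle isoforms encoded by separate genes. FASTKD1 belongs to a family of mitochondrial RNA-binding proteins that act on transcripts of mitochondrial DNA, whereas the genes described here are transcribed in the nucleus.

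Libraries held 44584359 to 55769859 counts in transgenic hearts and 45802079 to 50830215 in non-transgenic hearts. Fastkd1 itself had 441671 to 568860 counts in transgenic hearts, against 1161, 1180 and 1776 in hearts A, B and E of the non-transgenic group and 10594 in the heart labelled non-transgenic D. That heart D also had 0 counts over 4 Y-linked genes, where the other 7 libraries had 10372 to 15914, so its label is in doubt. Several results that rest on it are given with and without it. Non-transgenic heart B stood apart in base composition: over 13214 genes its log2 level fell by 0.35 for each 10 points of transcript GC content, while the slopes of the other libraries lay between -0.02 and 0.12. Heart tissue was checked with 10 cardiomyocyte markers, all of them in the files. Their summed level was 67399 to 71192 CPM (counts scaled to a common library size, normalised by edgeR's TMM method) in transgenic hearts, below the 82791 to 97558 CPM of non-transgenic hearts. Of the other lists, 5 of 6 atrial markers summed to 21.6 to 3148 CPM in transgenic hearts, with heart A the highest, and 18.5 to 599 CPM in non-transgenic hearts, with heart D the highest. The 6 skeletal muscle markers were not analysed here.

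Most of the 42 genes were slightly lower in transgenic hearts, and none passed the test. Together they took 3.06 to 3.25% of all counts in transgenic hearts, against 3.29 to 3.61% in non-transgenic hearts. Without mitochondrially encoded genes in the total, the shares overlapped, at 4.01 to 4.28% in transgenic and 4.04 to 4.83% in non-transgenic hearts, with heart D the lowest of its group. A level below that of non-transgenic hearts was fitted for 40 of the 42, with a median log2 fold change of -0.24 (a change of -15.3%), while the median over all 13226 genes tested was 0.01 and 48.8% of them lay below 0. By edgeR's quasi-likelihood test with Benjamini-Hochberg adjustment over all genes (threshold 0.05), 0 members rose and 0 fell; over all genes 1.01% were called higher and 0.242% lower. At an unadjusted p under 0.05 the same test had 13 members lower and 1 higher, or 31.0% lower, against 5.38% of all genes lower and 5.37% higher. These counts are not of independent genes, since the members share the same hearts and most moved together among non-transgenic hearts, as given below. DESeq2 called 3 members lower (Cox7a1, Cox8b and Atp5k) and 1 higher (Cox8a), where it called 1.2% of all genes lower and 1.89% higher. Limma-voom called 0.

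The members varied more among non-transgenic than among transgenic hearts, with a larger SD of log2 CPM for 38 of the 42. The coefficient of variation had a median over members of 6.38% among transgenic hearts and 18.2% among non-transgenic hearts. Both comparisons include non-transgenic hearts B and D, and the spread without either was not computed. Averaged over the 42 genes, log2 CPM was 8.75, 8.83, 8.73 and 8.73 in transgenic hearts, against 9.12, 9.14, 8.75 and 8.89 in non-transgenic hearts. Non-transgenic hearts A and B stood highest, heart E was intermediate and heart D lay within the transgenic range. Among non-transgenic hearts, D was the lowest for 35 members, and A or B the highest for 39. All 4 transgenic hearts lay below all 4 non-transgenic hearts for 5 members (Uqcr11, Cox7a1, Cox8b, Atp5g3 and Atp5k), or 11.9% of members, as they did for 2.8% of all genes. Without heart D, a choice made after seeing the data, the count was 24 members (57.1%), against 6.89% of all genes, and 1 member was higher (Cox8a), against 7.3% of all genes.

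**Figure D1:**
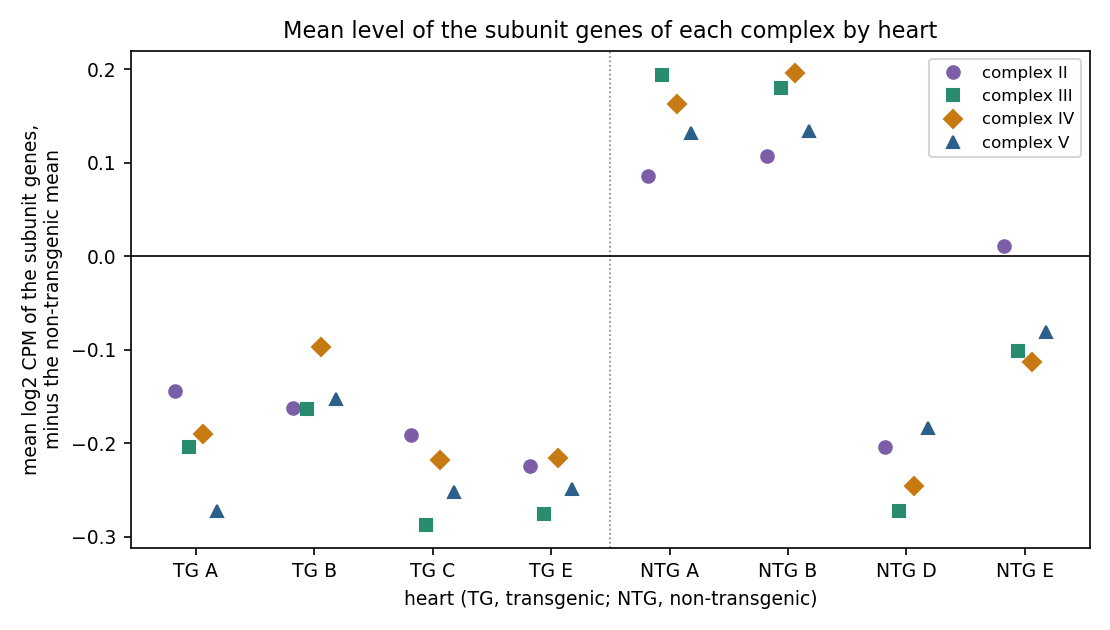
Mean log2 CPM of the nuclear subunit genes of complexes II, III, IV and V in each heart, minus the mean of the 4 non-transgenic hearts; each symbol is 1 complex in 1 heart. Transgenic hearts lie between -0.29 and -0.10, non-transgenic hearts A and B at 0.09 to 0.20, and non-transgenic heart D at -0.27 to -0.18.

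Values that moved with this pattern were recorded beside it. The cardiomyocyte markers had log2 fold changes of -0.57 to -0.01 with a median of -0.36, and edgeR adjusted p of at least 0.111. Of the 10, 6 were lower in transgenic hearts without overlap between the groups, as were 2.8% of all genes. Ryr2 and Ttn differed least, at -0.01 and -0.09. In bulk tissue, fewer cardiomyocytes and less of these RNAs per cardiomyocyte cannot be told apart. Mitochondrially encoded genes took 21.9 to 27.0% of counts in transgenic hearts and 18.6 to 30.1% in non-transgenic hearts, with heart B the highest and heart D the lowest of all 8. The part of cell composition and of the mitochondrial share in the lower subunit levels was not tested. Across the 42 members the log2 fold change had a Pearson r of 0.33 with transcript GC content (Spearman 0.21), and of 0.17 without non-transgenic heart B; the genes share the same 8 libraries.

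In complex II the 4 genes lay within a narrow range. Sdha, the flavoprotein with the catalytic site, Sdhb, the iron-sulphur subunit, and the membrane anchors Sdhc and Sdhd had log2 fold changes between -0.22 and -0.16, with a median of -0.19 and edgeR adjusted p of 0.598 to 0.656. Sdhb had 753, 787, 707 and 711 CPM in transgenic hearts, against 994, 949, 696 and 799 CPM in non-transgenic hearts. Sdhd had 561, 549, 539 and 507 CPM in transgenic hearts, against 640.0, 743, 515 and 589 CPM in non-transgenic hearts. Heart D was below every transgenic heart for Sdhb and among them for Sdhd, and the other 3 non-transgenic hearts lay above the transgenic hearts for both genes. The log2 fold change of Sdhb was -0.22 with all hearts and -0.14 without non-transgenic heart A, and that of Sdhd was -0.21 with all hearts and -0.11 without non-transgenic heart B. Sdhd was also the complex II gene with the highest level per length, at 438 ± 18.9 CPM per kb of exon in transgenic hearts and 505 ± 78.0 in non-transgenic hearts (± SD over 4 hearts each).

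In complex III all 9 genes had log2 fold changes below 0, from -0.38 to -0.10 with a median of -0.25. Uqcr11, a small subunit of the complex, had 236, 229.7, 206 and 214 CPM in transgenic hearts, against 326, 342, 237 and 251 CPM in non-transgenic hearts. The groups did not overlap, though the highest transgenic and the lowest non-transgenic heart were within 1 CPM of each other. Its log2 fold change of -0.38 had an SE of 0.13 and an edgeR adjusted p of 0.311. Uqcrb, long known as the ubiquinone-binding protein of the complex, had 469, 453, 415 and 395 CPM in transgenic hearts, against 597, 756, 399 and 472 CPM in non-transgenic hearts. Heart B was the highest; the log2 fold change was -0.36 with all hearts and -0.18 without heart B.

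The Rieske iron-sulphur protein gene Uqcrfs1 averaged 599 ± 23.6 CPM in transgenic and 713 ± 81.5 CPM in non-transgenic hearts, and cytochrome c1 (Cyc1) 624 ± 27.8 CPM in transgenic and 671 ± 85.2 CPM in non-transgenic hearts (± SD over 4 hearts each). The log2 fold changes were -0.25 and -0.10. The core proteins Uqcrc1 and Uqcrc2 stood at -0.16 and -0.34, the hinge protein Uqcrh at -0.31, and Uqcrq and Uqcr10 at -0.13 and -0.23. Cycs, the soluble cytochrome c that links complexes III and IV, had 182, 189, 171 and 163 CPM in transgenic hearts, against 235, 296, 187 and 194 CPM in non-transgenic hearts. Non-transgenic hearts A and B again stood above the rest, and heart D lay just under transgenic heart B (log2 fold change -0.37, SE 0.14, edgeR adjusted p = 0.383; -0.22 without non-transgenic heart B).

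Complex IV held the members with the largest differences in both directions, and these were genes of its tissue isoforms. For 3 subunits the mouse has a muscle isoform and a ubiquitous one: Cox6a2 and Cox6a1, Cox7a1 and Cox7a2, and Cox8b and Cox8a, the muscle form first in each pair. The genes lie on GRCm38 at chromosome 7, 30184144 to 30186078 (Cox7a1), chromosome 9, 79755361 to 79759878 (Cox7a2), chromosome 7, 140898945 to 140900446 (Cox8b) and chromosome 19, 7215153 to 7217616 (Cox8a). Cox6a2 is at chromosome 7, 128205435 to 128206387, and Cox6a1 at chromosome 5, 115345642 to 115348981. None of the 6 transcripts matched another annotated gene at 95% identity over 200 bases; exons of Itgad lie opposite 10.29% of the Cox6a2 exons.

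Promoters of 5 of these 6 isoform genes are shown, so that the start regions of the muscle and ubiquitous forms can be compared for Cox7a and Cox8. Each run gives 250 bases before and 50 bases after the RefSeq start (GRCm38.p6), 5′ to 3′ on the gene's strand. Capitals mark matches, on either strand, to the motif of NRF1 or to CCGGAAG (of ETS factors such as GABPA).
Cox7a1 (chr7:30183921-30184220, plus strand): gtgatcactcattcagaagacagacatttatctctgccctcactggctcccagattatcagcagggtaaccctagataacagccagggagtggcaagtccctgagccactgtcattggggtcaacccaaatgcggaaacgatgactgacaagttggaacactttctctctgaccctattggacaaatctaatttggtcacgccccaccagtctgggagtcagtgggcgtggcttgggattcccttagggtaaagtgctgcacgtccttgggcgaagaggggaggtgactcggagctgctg
Cox7a2 (chr9:79759804-79760103, minus strand): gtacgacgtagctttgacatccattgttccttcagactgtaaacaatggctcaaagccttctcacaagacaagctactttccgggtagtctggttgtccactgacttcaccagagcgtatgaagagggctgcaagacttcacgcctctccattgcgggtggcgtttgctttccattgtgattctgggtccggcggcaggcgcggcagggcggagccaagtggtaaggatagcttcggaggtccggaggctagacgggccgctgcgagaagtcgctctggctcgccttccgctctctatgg
Cox8b (chr7:140900397-140900696, minus strand): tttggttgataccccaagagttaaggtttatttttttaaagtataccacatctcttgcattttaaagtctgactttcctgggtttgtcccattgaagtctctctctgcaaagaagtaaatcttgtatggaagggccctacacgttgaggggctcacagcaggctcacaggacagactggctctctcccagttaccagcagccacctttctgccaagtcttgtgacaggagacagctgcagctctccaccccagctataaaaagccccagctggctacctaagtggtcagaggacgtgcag
Cox8a (chr19:7217567-7217866, minus strand): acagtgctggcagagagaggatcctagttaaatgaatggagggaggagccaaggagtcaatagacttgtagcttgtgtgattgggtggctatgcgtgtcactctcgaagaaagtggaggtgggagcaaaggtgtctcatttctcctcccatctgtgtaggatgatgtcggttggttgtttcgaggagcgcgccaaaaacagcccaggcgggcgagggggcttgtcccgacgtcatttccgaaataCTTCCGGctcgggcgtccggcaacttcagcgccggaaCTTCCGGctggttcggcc
Cox6a1 (chr5:115348909-115349208, minus strand): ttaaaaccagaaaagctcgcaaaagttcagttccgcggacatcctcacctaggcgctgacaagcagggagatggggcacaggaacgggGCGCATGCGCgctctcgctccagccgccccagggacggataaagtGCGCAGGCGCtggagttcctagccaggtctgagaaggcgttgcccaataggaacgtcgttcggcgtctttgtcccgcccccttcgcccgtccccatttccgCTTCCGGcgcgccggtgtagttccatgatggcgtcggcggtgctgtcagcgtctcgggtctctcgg
Cox8b and Cox7a1, the muscle forms, had 2 and 7 CG dinucleotides in these 300 bases, against 19 in Cox8a, 20 in Cox7a2 and 32 in Cox6a1. The ubiquitous genes Cox8a and Cox6a1 held the ETS letters, and Cox6a1 the NRF1 letters as well. Windows of Cox7a1, Cox8b and Cox7a2 held neither set of letters; nothing follows from this about the factors.

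Cox7a1 was lower in every transgenic heart. It had 478, 490.2, 438 and 425 CPM in transgenic hearts, against 779, 788, 533 and 578 CPM in non-transgenic hearts. The groups did not overlap, and non-transgenic hearts A and B stood well above D and E. The log2 fold change was -0.55 (SE 0.14), the largest of the 42 in size, with an edgeR adjusted p of 0.130. Without heart D it was -0.65 with an edgeR adjusted p of 0.0418, and over all alternatives, DESeq2 included, the adjusted p ran from 0.00760 to 0.329. Its ubiquitous counterpart Cox7a2 had 372, 433, 346 and 366 CPM in transgenic hearts, against 436, 473, 329 and 352 CPM in non-transgenic hearts. These groups overlapped throughout (log2 fold change -0.07, SE 0.13, edgeR adjusted p = 0.909), and the sign of the difference turned with library totals as the only scaling or without heart B (0.024 and 0.025).

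Cox8b and Cox8a differed in opposite directions. The muscle gene Cox8b had 305, 309.6, 271 and 273 CPM in transgenic hearts, against 487, 484, 314 and 354 CPM in non-transgenic hearts. All transgenic hearts were below all non-transgenic hearts, with heart D the closest (log2 fold change -0.50, SE 0.15, edgeR adjusted p = 0.218). Cox8a had 108, 122, 113 and 111 CPM in transgenic hearts, against 92.6, 90.4, 82.6 and 86.5 CPM in non-transgenic hearts. Here every transgenic heart was above every non-transgenic heart, heart D included, and both groups were tight. The log2 fold change was 0.37 (SE 0.08) and the edgeR adjusted p = 0.0679 was the lowest of the 42 members. Without non-transgenic heart B the edgeR adjusted p was 0.0450, and without heart D it was 0.114. With any other single heart left out it lay between 0.0987 and 0.311. Over all alternatives, DESeq2 included, the adjusted p ran from 0.000396 to 0.379. Cox8a was the single member that was higher without overlap, as were 4.58% of all genes.

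For the third pair the fitted signs were the same, with smaller differences. Cox6a2 had 1247, 1235, 1101 and 1192 CPM in transgenic hearts, against 1491, 1475, 1042 and 1123 CPM in non-transgenic hearts. Non-transgenic hearts A and B were above the transgenic hearts, and D and E among or below them (log2 fold change -0.10, SE 0.13, edgeR adjusted p = 0.847; -0.024 without heart A, -0.030 without heart B, -0.20 without heart D and -0.18 without heart E). Cox6a1 had 49.3, 61.5, 62.1 and 52.9 CPM in transgenic hearts, against 50.9, 44.3, 45.7 and 52.5 CPM in non-transgenic hearts (log2 fold change 0.22, SE 0.10, edgeR adjusted p = 0.485). Transgenic hearts B, C and E were the highest, and transgenic heart A lay within the non-transgenic range.

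**Figure D2:**
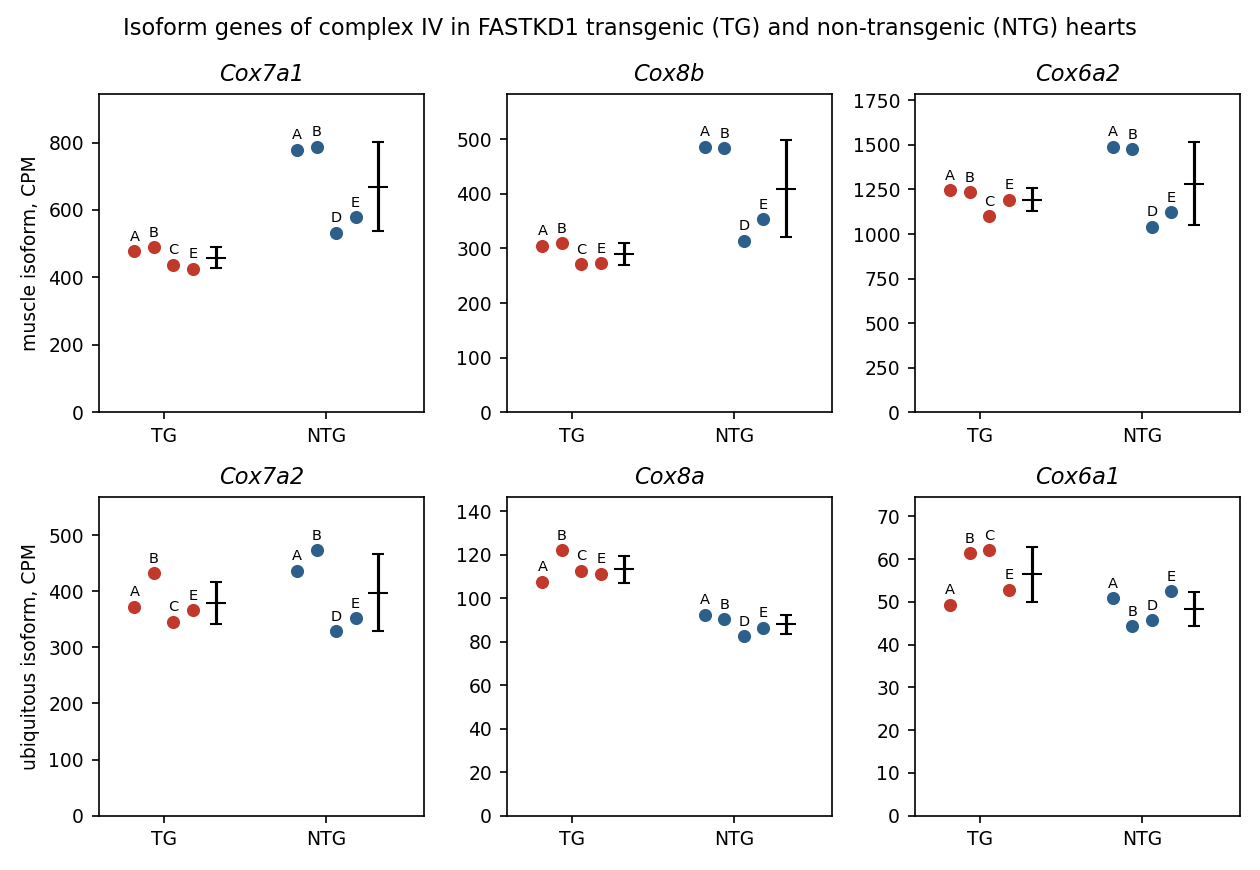
CPM of the muscle isoform genes (top row) and ubiquitous isoform genes (bottom row) of complex IV in 4 transgenic (TG, left) and 4 non-transgenic (NTG, right) hearts; letters are heart titles, and bars are mean ± SD. Cox7a1 and Cox8b are lower without overlap in transgenic hearts, Cox8a is higher without overlap, and the other 3 genes overlap.

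A ratio of muscle to ubiquitous isoform within each heart does not depend on how libraries are scaled. The log2 ratio of Cox8b to Cox8a was 1.504, 1.34, 1.27 and 1.295 in transgenic hearts, against 2.39, 2.42, 1.93 and 2.03 in non-transgenic hearts. Counts of Cox8b were thus 2.55 times those of Cox8a in transgenic hearts and 4.57 times in non-transgenic hearts (geometric means). The difference of -0.84 exceeded the SD of 0.11 and 0.25 within the groups, and an exact permutation test gave its smallest possible p of 0.0286 (two-sided, 70 arrangements; adjusted p = 0.0357 over 5 ratios). Because Cox8b was lower and Cox8a higher without overlap, this ratio had to separate the groups completely. Its p was therefore fixed by the values given above and adds nothing to them. It was -0.93 without heart D and -0.77 without heart B. By the same exact permutation test (35 arrangements) the adjusted p was 0.0476 without heart D and 0.0714 without non-transgenic heart E. Without heart E, neither this nor the other 3 ratios that had passed did so. For this ratio the raw p of 0.0286 was again the smallest possible there. Its adjusted p rose because the raw p of both Atp5g ratios rose to 0.0571, and the adjustment takes the 5 ratios together. Whether a ratio passes thus depends on the other ratios as well.

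The ratio of Cox7a1 to Cox7a2 separated the groups as cleanly. Its log2 value was 0.36, 0.18, 0.34 and 0.22 in transgenic hearts, against 0.84, 0.73, 0.69 and 0.72 in non-transgenic hearts, a difference of -0.47 (exact permutation p = 0.0286, adjusted p = 0.0357). Heart D was here with its labelled group, and the SD was 0.09 in transgenic and 0.06 in non-transgenic hearts. Cox6a2 over Cox6a1 averaged 4.41 ± 0.22 in transgenic and 4.71 ± 0.30 in non-transgenic hearts (± SD over 4 hearts each); the groups overlapped and the ratio did not pass (exact permutation p = 0.171). Per kb of exon the muscle genes remained the more abundant members in both groups, with ratios of 4.39 in transgenic and 7.86 in non-transgenic hearts for Cox8, 2.13 in transgenic and 2.96 in non-transgenic hearts for Cox7a, and 21.9 in transgenic and 27.1 in non-transgenic hearts for Cox6a. Per kb of coding length the ratio for Cox7a was 1.07 in transgenic and 1.48 in non-transgenic hearts, that for Cox8 2.70 in transgenic and 4.83 in non-transgenic hearts, and that for Cox6a 24.5 in transgenic and 30.3 in non-transgenic hearts. The muscle forms are made in cardiomyocytes and the ubiquitous forms in most cells. Beside these ratios, the cardiomyocyte markers were lower in transgenic hearts as given above, while 6 endothelial markers summed to 723 to 748 CPM in transgenic and 746 to 820 CPM in non-transgenic hearts. Summed levels of 7 fibroblast markers were 1217 to 1702.5 CPM in transgenic and 1264 to 1765 CPM in non-transgenic hearts. Macrophage markers (7 genes) summed to 186 to 241 CPM in transgenic and 182 to 255 CPM in non-transgenic hearts, and smooth muscle and pericyte markers (6 genes) to 783 to 1041 CPM in transgenic and 655 to 1067.5 CPM in non-transgenic hearts. Within the last list Acta2, the smooth muscle actin, had 222, 259, 375 and 210.3 CPM in transgenic hearts, against 108, 173, 134 and 109 CPM in non-transgenic hearts, with no overlap (log2 fold change 1.03, edgeR adjusted p = 0.0505). The rest of that list did not follow it. Rgs5 and Kcnj8 stood at -0.26 and -0.12, and Myh11, Pdgfrb and Cspg4 at 0.12, 0.14 and 0.36 (edgeR adjusted p of at least 0.66). The 4 erythroid markers in the files summed to 299 to 416 CPM in transgenic and 356 to 803 CPM in non-transgenic hearts, and 5 adipocyte markers to 20.9 to 29.8 CPM in transgenic and 22.2 to 53.5 CPM in non-transgenic hearts. No marker gene of these lists passed the edgeR test, and their part in the isoform ratios was not tested.

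**Figure D3:**
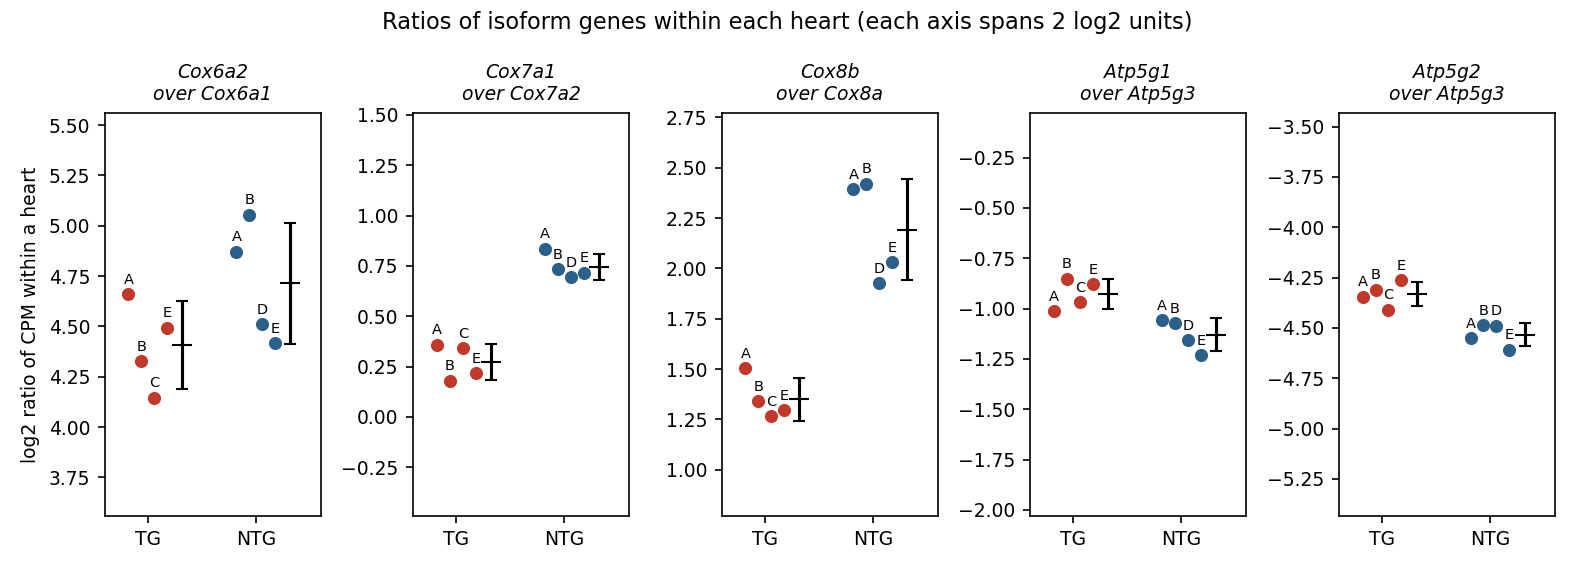
Log2 ratio of CPM of isoform genes within each heart, transgenic (TG, left) and non-transgenic (NTG, right); letters are heart titles, bars are mean ± SD, and every axis spans the same range on the log2 scale. The groups do not overlap for 4 of the 5 ratios; Cox6a2 over Cox6a1 overlaps.

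The remaining complex IV genes, which have no muscle form among the members, lay between -0.42 and -0.13 and did not pass. Cox4i1, the largest nuclear subunit, averaged 1080 ± 80.2 CPM in transgenic and 1226 ± 142 CPM in non-transgenic hearts (± SD over 4 hearts each; log2 fold change -0.18). Cox5a and Cox5b, which sit on the matrix side, stood at -0.13 and -0.17, and Cox6b1, on the intermembrane side, at -0.28. Lower values were fitted for the small membrane subunits Cox6c (-0.42, edgeR adjusted p = 0.329), Cox7c (-0.40, 0.399) and Cox7b (-0.31, 0.511). The median of all 13 complex IV genes was -0.18. Cox6a2 had the highest level per kb of exon of all 42 genes, at 1755 ± 97.4 CPM per kb in transgenic and 1886 ± 344 CPM per kb in non-transgenic hearts (± SD over 4 hearts each).

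In complex V all 15 genes had log2 fold changes below 0, with a median of -0.27 and a range of -0.42 to -0.04. The catalytic F1 subunits were among the least different. Atp5a1, the alpha subunit, had 4678, 4663, 4407 and 4397 CPM in transgenic hearts, against 5711, 4884, 4498 and 5141 CPM in non-transgenic hearts. Heart D was again among the transgenic hearts (log2 fold change -0.16, SE 0.10, edgeR adjusted p = 0.648; -0.094 without non-transgenic heart A), and Atp5a1 had the highest level per kb of exon in the complex, at 1447 CPM per kb in transgenic and 1614 in non-transgenic hearts. Atp5b, the catalytic beta subunit, averaged 4797 ± 161 CPM in transgenic and 5063 ± 535 CPM in non-transgenic hearts (± SD over 4 hearts each; log2 fold change -0.08). Per kb of coding length Atp5b stood above Atp5a1, at 3023 against 2734.5 CPM per kb in transgenic and 3190 against 3049 in non-transgenic hearts. The gamma, delta and epsilon subunits of the central stalk, Atp5c1, Atp5d and Atp5e, stood at -0.27, -0.05 and -0.36.

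Of the complex V genes, Atp5k had the log2 fold change farthest from 0. Atp5k, the membrane subunit e, which holds ATP synthase dimers together, had 331, 376, 328 and 332 CPM in transgenic hearts, against 497, 542, 388 and 397 CPM in non-transgenic hearts. All transgenic hearts were below all non-transgenic hearts, with transgenic heart B the highest of its group and the other 3 close together. The log2 fold change of -0.42 had an SE of 0.12 and an edgeR adjusted p of 0.218. Among the stalk subunits, Atp5f1 (b), Atp5h (d), Atp5j (F6) and Atp5o (OSCP) stood at -0.26, -0.39, -0.40 and -0.29, and the membrane subunit f, Atp5j2, at -0.38. Atp5l, subunit g, had 2.52 to 7.92 CPM in transgenic and 3.54 to 8.20 CPM in non-transgenic hearts, where every other member had at least 44.3 CPM. Its transcript matched 9 other annotated genes at 95% identity or more over at least 200 bases, 8 of them pseudogenes, so its count is uncertain.

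The c-ring of complex V is encoded by 3 genes whose products differ in the import sequence and become the same mature protein. Atp5g3 had 958, 1002, 969 and 918 CPM in transgenic hearts, against 1350.1, 1277, 1016 and 1159 CPM in non-transgenic hearts, with no overlap. Its log2 fold change of -0.32 had an SE of 0.10 and an edgeR adjusted p of 0.287. Atp5g1 had 475, 555, 495 and 499 CPM in transgenic hearts, against 648, 608, 455 and 494 CPM in non-transgenic hearts, and Atp5g2 had 47.1, 50.5, 45.6 and 47.8 CPM in transgenic hearts, against 57.6, 57.0, 45.2 and 47.5 CPM in non-transgenic hearts. In these 2 genes, non-transgenic hearts A and B were high and the others overlapped the transgenic hearts (log2 fold changes of -0.12 each). Leaving out 1 non-transgenic heart at a time, in the order of their titles, gave -0.036, -0.073, -0.21 and -0.19 for Atp5g1 and -0.063, -0.069, -0.19 and -0.17 for Atp5g2.

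The balance among the c-ring genes differed between groups by a small amount. The log2 ratio of Atp5g1 to Atp5g3 was -1.01, -0.85, -0.97 and -0.88 in transgenic hearts, against -1.06, -1.07, -1.16 and -1.23 in non-transgenic hearts (difference 0.20, exact permutation p = 0.0286, adjusted p = 0.0357). That of Atp5g2 to Atp5g3 was -4.34, -4.31, -4.41 and -4.26 in transgenic hearts, against -4.55, -4.49, -4.49 and -4.61 in non-transgenic hearts (difference 0.20, exact permutation p = 0.0286, adjusted p = 0.0357). Neither ratio overlapped between groups, and both share the denominator Atp5g3. By the exact permutation test without non-transgenic heart E neither passed (adjusted p = 0.0714 each), and without heart D the ratio of Atp5g1 did not pass (adjusted p = 0.0714). A pseudogene with a stretch 99.8% identical to Atp5g1, Gm10039, was counted separately and held 1.89% as many counts as Atp5g1.

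**Figure D4:**
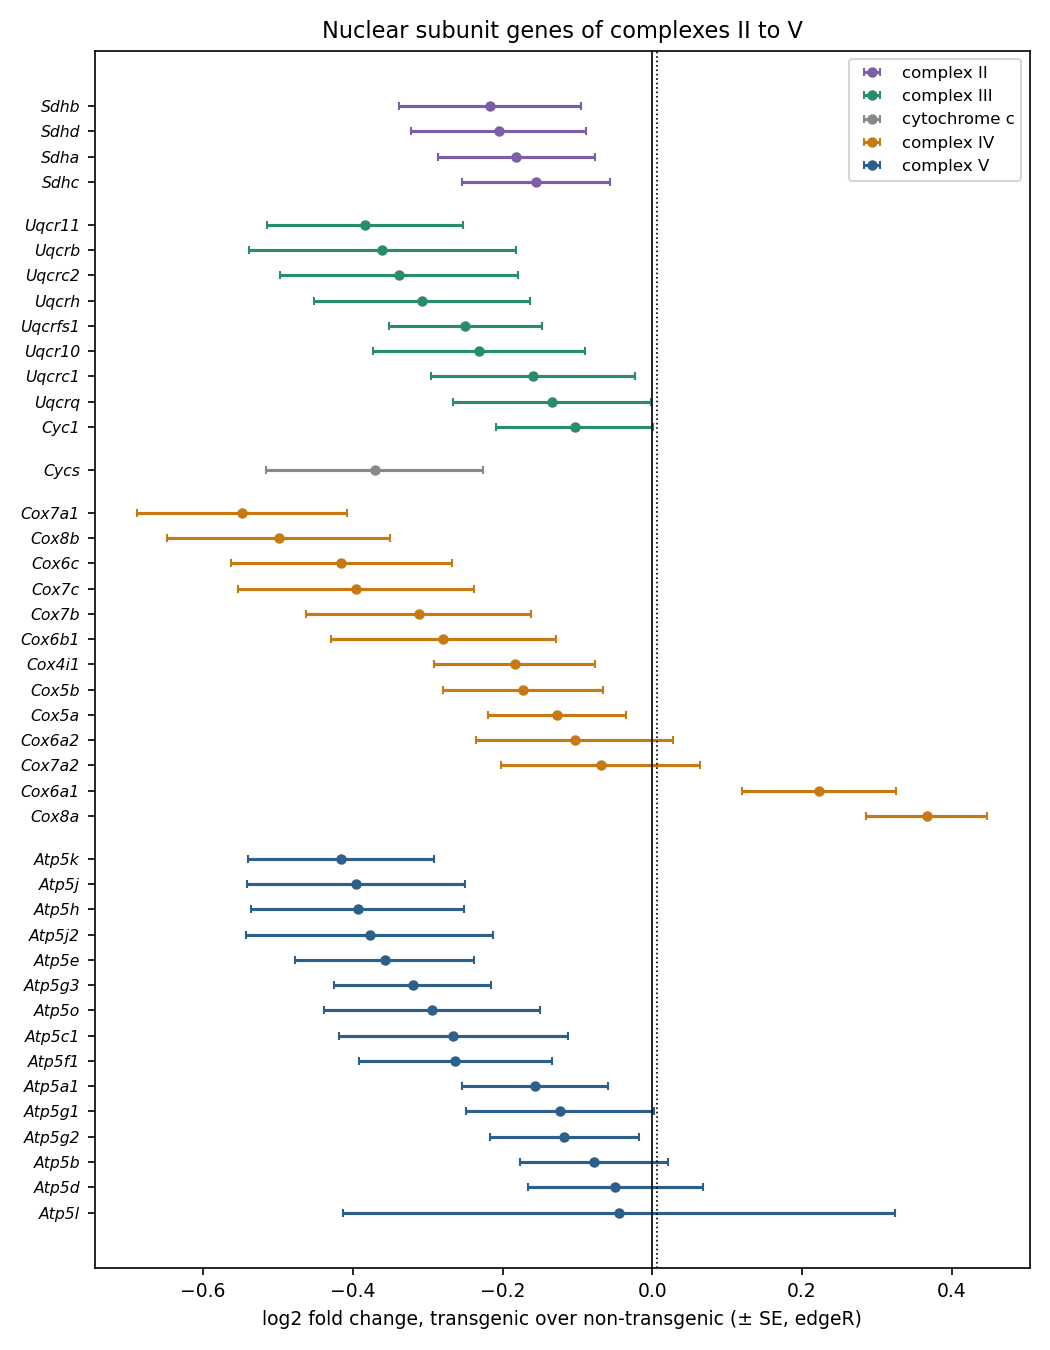
Log2 fold change of each of the 42 genes, transgenic over non-transgenic hearts, with its SE from edgeR, grouped by complex; the solid line is 0 and the dotted line the median of all genes tested (0.01). Values run from -0.55 for Cox7a1 to 0.37 for Cox8a, and 40 of 42 lie below 0.

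Genes outside the subunit list but of the same complexes were compared in 6 lists of assembly factors, further subunits and mitochondrially encoded subunits. Of 55 such genes 45 were tested, and 0 rose and 0 fell by edgeR, where 1.01% of all genes were called higher and 0.242% lower. At an unadjusted p under 0.05 by edgeR, 1 was higher and 5 (11.1%) were lower. Of all genes, 5.37% were higher and 5.38% lower at that threshold. DESeq2 and limma-voom called 0 of the 45. Their median log2 fold change was -0.08. The 10 tested further subunits and isoforms had a median of -0.20, nearer to that of the members, and the 20 assembly factors of complex IV a median of -0.08. Ndufa4, a complex IV subunit once assigned to complex I, had 691, 695, 585 and 602 CPM in transgenic hearts, against 932, 1067, 627 and 707 CPM in non-transgenic hearts (log2 fold change -0.37, edgeR adjusted p = 0.448). Higd1a, a hypoxia-induced partner of complex IV, had 85.0 to 94.8 CPM in transgenic hearts, below the 96.0 to 121 CPM of non-transgenic hearts (edgeR adjusted p = 0.423).

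Of the assembly factors of complex IV, Cox19 and Cox17 had the smallest unadjusted p. Cox17, the chaperone that brings copper to the complex, had 11.98 to 13.1 CPM in transgenic and 13.7 to 18.4 CPM in non-transgenic hearts (log2 fold change -0.28, edgeR adjusted p = 0.400). Cox19, another assembly factor of the same compartment, had 45.6 to 56.3 CPM in transgenic and 36.8 to 46.5 CPM in non-transgenic hearts (0.28, edgeR adjusted p = 0.340). The complex II assembly factors Sdhaf3 and Sdhaf4 stood at -0.28 and -0.33, the complex III factors Uqcc1 and Uqcc2 at -0.19 and -0.20, and the ATP synthase factors Atpaf2 and Tmem70 at -0.18 and -0.07. Of the mitochondrially encoded subunits, mt-Co1, the catalytic core of complex IV, had 65639, 55295, 52360 and 52524 CPM in transgenic hearts, against 87165, 114104, 55187 and 67153 CPM in non-transgenic hearts. Its log2 fold change was -0.52 (edgeR adjusted p = 0.388), and that of mt-Cytb of complex III was -0.06 (edgeR adjusted p = 0.956); the other 4 listed were not analysed here.

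The start regions of the members were searched for motifs of 4 known regulators of respiratory genes, as a description with no test. RefSeq promoters of the length shown above were matched by symbol for 32 of the 42 genes, 35 promoters in all. The NRF1 motif occurred in 28.6% of them, against 4.60% of all 32851 promoters in the table, and CCGGAAG in 34.3%, against 8.86%. TCAAGGTCA, the letters bound by ERR receptors, occurred in 5.71% against 0.423%, and GCCATNTTG, of YY1, in 8.57% against 2.51%. Any of these 4 motifs, searched on both strands, was found in 21 of the 35 (60.0%), against 14.8% of all promoters. The member promoters also had a median of 19 CG dinucleotides, against 7 for all promoters, and Cox8b with 2, Cox7b with 5 and Cox7a1 with 7 had the fewest among them. The NRF1 motif and CCGGAAG themselves hold CG, and no promoters of like CG content were set beside the members. The part of CG content in these shares was not tested.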

How the data were processed

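RNA sequencing of 8 hearts, 1 library each, was analysed from the deposited files. Each deposited file holds raw counts, 1 whole number for each Ensembl gene. The submitters' processing notes name cutadapt 1.15, TopHat2 and the builds GRCm38 and mm10. Counter, annotation release and strand setting are not given in the sources used here, so reads of overlapping opposite-strand exons, which 12 members have over at most 19.8% of their exon length, cannot be told apart. Symbols, coordinates and exon lengths came from GENCODE M21 (GRCm38), and promoters from RefSeq (GRCm38.p6).

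The fit across all genes used edgeR 4.0.16 under R 4.3.3 (genes kept by filterByExpr, 13226; TMM, quasi-likelihood F test, two-sided, Benjamini-Hochberg over all genes, threshold 0.05). The SE was worked back from F. Log2 ratios within a heart used a prior count of 2 and an exact permutation test over samples, two-sided (on the absolute difference where 1 heart was left out). Alternatives used DESeq2 1.42.0 and limma 3.58.1. Counts were simulated for this comparison of 2 groups over 13226 genes. The fit recovered 24% of genes changed 1.5-fold, 76% changed 2-fold, 100% changed 4-fold and 98% changed 8-fold, and 9 of 158 calls were false. Smaller changes, such as the members' median of -15.3%, were not simulated.

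Members and lists were chosen with earlier results of these data known. Named with values in every heart were the isoform families and, per complex, the 2 members with the smallest p, the largest change and the highest level per kb; of each further list, the 2 genes with the smallest p, most of them as ranges or fold changes. Other members are given by fold change or mean. Transcripts of 13 members matched another annotated gene (95% identity over 200 bases), and 10 such copies were counted in the files; besides Atp5l, they held at most 3.38% of the member's counts. No pair of libraries was close enough to be repeats (lowest chi-square over degrees of freedom, 19.7). Labels do not say that a shared letter pairs animals. The edgeR p sets a group difference against the variation between these hearts, and the permutation p ranks the observed difference among arrangements of them.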

Additional observations from a re-analysis of the deposited data

Results flagged for a closer look

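Atp5k had 376 CPM in transgenic heart B, far from the 328 to 332 CPM of the other 3 transgenic hearts relative to the range of the group. It was the only value that stood apart in this way among 50 groups of 4 hearts looked at, where chance gives about 1 in 20.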

How the results depend on the processing

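Over the alternatives, the median log2 fold change of the members stayed below 0. With one heart left out at a time it ran from -0.33 to -0.17 for all members, -0.27 to -0.14 for complex II, -0.33 to -0.18 for complex III, -0.25 to -0.13 for complex IV and -0.39 to -0.18 for complex V. Complex V stood at -0.39 without non-transgenic heart D, with or without transgenic heart A. Members called higher and lower numbered 1 and 1 with library totals only (Cox8a and Cox7a1), 1 and 3 with DESeq2, and 0 to 1 in each direction with 1 heart left out: 1 higher (Cox8a) without non-transgenic heart B, and 1 lower (Cox7a1) without non-transgenic heart D. Library totals also move the median of all genes to 0.08. Over all genes, DESeq2 called 249 higher and 159 lower, against 133 and 32 by edgeR. With 1 heart left out, 103 to 168 genes were called higher and 9 to 72 lower; with non-transgenic D and transgenic A both left out, 106 were lower. The cause of these differences was not tested.

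With the title letters as a replicate block, 21 genes were called lower over all genes and 0 members in either direction; the block changed no call of a member. Deviations from the group means correlated at 0.30, -0.08 and 0.36 for letters A, B and E, so pairing by letter was not shown. The isoform differences with 1 heart left out ran from -0.93 to -0.77 (Cox8b over Cox8a), -0.50 to -0.44 (Cox7a1 over Cox7a2), -0.41 to -0.19 (Cox6a2 over Cox6a1), 0.17 to 0.23 (Atp5g1 over Atp5g3) and 0.18 to 0.23 (Atp5g2 over Atp5g3), and their adjusted p by an exact permutation test over 35 arrangements stayed at 0.0357 for the 4 ratios that passed, except without non-transgenic heart D (0.0714 for Atp5g1 over Atp5g3, 0.0476 for the other 3) and without non-transgenic heart E (0.0714 for all 4). For Cox8b over Cox8a and Cox7a1 over Cox7a2 the raw p of that test stayed at its smallest possible value, 0.0286, whichever heart was left out. The 3 pairs of a block cannot reach the threshold by permutation. A prior count of 0.5 changed no isoform call. Cox7a2 reversed to 0.024 with library totals and to 0.025 without non-transgenic heart B, and ran from -0.16 to 0.025 with 1 heart left out. The order of levels per kb depends on the length used (Spearman 0.74 between exon and coding length).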
